A study of Mus musculus with 10 samples.

Results

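Microvillous cells are sparse cells of the nasal epithelium that carry a tuft of microvilli in place of the cilia of olfactory neurons, and 9 genes known to mark them were followed in whole main olfactory epithelium (MOE). They were taken as a set by symbol, by a rule that uses no measured value. The rule gives no kinds, and these were placed here. Pou2f3, Trpm5, Chat, Plcb2, Il25 and Itpr3 were taken as tuft-like (6 genes), and Ascl3, Foxi1 and Cftr as ionocyte-like (3 genes). Itpr3 was placed by its part in the cascade described below and need not mark that kind alone. Each had 1 probe set that the platform annotation assigned to that symbol alone, out of 19938 genes with such a probe set. The 10 arrays held 4 H2be-GF and 6 wild-type (WT) samples, all of whole MOE from mice 5 weeks of age. H2be-GF mice carry a transgene in which the promoter of olfactory marker protein (Omp) drives a FLAG-tagged H2BE, a variant of histone H2B. Per the study's methods the transgene comes from 1 founder line and is silent in some mature neurons, and each array held RNA pooled from several mice, with more of them in an H2be-GF pool than in a WT pool. The question for these genes was whether they differ in level in the tissue of mice labelled as carrying this transgene.

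Tuft-like cells detect chemicals with the machinery of taste cells. A G protein-coupled receptor activates phospholipase C beta 2, inositol trisphosphate opens calcium stores, calcium opens the cation channel TRPM5, and the cell releases acetylcholine or, in many mucosae, interleukin 25. Ionocyte-like cells are built by Forkhead factor FOXI1, carry proton pumps and the chloride channel CFTR, and are known for regulating the salt and acidity of the fluid over an epithelium. Both kinds are non-neuronal, although TRPM5 is also known from some olfactory neurons.

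None of the 9 genes passed the test across all probe sets. Values are deposited log2 signals, and a change is the H2be-GF mean minus the WT mean on that scale. The test was limma over 23194 probe sets with a Benjamini-Hochberg threshold of 0.05, which called 20 of them (0.0862%). Adjusted p-values of the 9 genes ran from 0.430 to 0.999. At an unadjusted p under 0.05, 1 of the 9 (Pou2f3) passed, against 1955 (8.43%) of all probe sets. In none of the 9 were the arrays of the genotypes fully apart, which held for 671 (2.89%) of all probe sets. The mean was lower in H2be-GF for 7 genes and higher for 2, with a median change of -0.02, against 0.01 over all probe sets. The median size of change without its sign was 0.09, against 0.08 over all probe sets. Because each array is a pool, the p-values rest on how far pools of a genotype differ. In bulk tissue fewer cells of a kind and less RNA per cell cannot be told apart.

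A promoter is shown for Trpm5, the channel by which tuft-like cells are most often recognised, and for Itpr3, the single gene of those listed whose window holds the octamer read by POU factors, the family of POU2F3. Each window holds 300 bases, most of them before the start of the gene and the rest after it, 5′ to 3′ on the strand of the gene, from RefSeq (GRCm38.p6), which listed 7 of the 9 genes. Capitals mark the octamer, searched as ATGCAAAT on both strands and here in the reverse form, beginning 27 bases before the start.
Trpm5, chr7:143094593-143094892, minus strand: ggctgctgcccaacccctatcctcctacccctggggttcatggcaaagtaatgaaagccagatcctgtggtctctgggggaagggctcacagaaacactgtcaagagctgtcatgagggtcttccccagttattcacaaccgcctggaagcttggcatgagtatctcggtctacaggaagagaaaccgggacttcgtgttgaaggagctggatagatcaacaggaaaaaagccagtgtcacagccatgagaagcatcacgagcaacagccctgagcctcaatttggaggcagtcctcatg
Itpr3, chr17:27057054-27057353, plus strand: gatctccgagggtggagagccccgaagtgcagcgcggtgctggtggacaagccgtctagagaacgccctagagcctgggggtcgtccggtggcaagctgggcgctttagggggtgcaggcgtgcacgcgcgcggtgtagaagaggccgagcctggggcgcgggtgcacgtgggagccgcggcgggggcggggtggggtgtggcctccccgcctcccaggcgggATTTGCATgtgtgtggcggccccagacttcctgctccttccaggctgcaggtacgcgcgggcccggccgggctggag

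The octamer was found in 1.74% of 32851 such windows. The forkhead core TGTTTAC, searched on both strands because FOXI1 is a forkhead factor, was found in 3.65% of the windows and in none of the 7. The windows of the 7 genes differed widely in composition: Itpr3 and Cftr held 30 and 31 CpG pairs, whereas Ascl3, Plcb2, Trpm5, Foxi1 and Chat held between 3 and 10. A match describes letters only, and binding was not measured here.

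Pou2f3 encodes the transcription factor required for tuft cells to form. On the H2be-GF arrays its level was 7.40, 7.04, 7.15 and 7.07, and on the WT arrays it ran from 7.23 through a median of 7.45 to 7.53. Thus 3 of the 4 H2be-GF arrays lay below every WT array, and the fourth lay among them. The change was -0.26 (SE 0.09, 95% interval -0.45 to -0.07), a ratio of 0.835, with a limma p of 0.0127 that became 0.430 after adjustment. A two-sided exact permutation test of this single value gave p = 0.0333, where the smallest p possible was 0.00476. The change was -0.26 both among the arrays high in Xist and among those low in it. Of all probe sets, 5.08% had a larger change in either direction. Leaving out any 1 array kept the change between -0.34 and -0.22, with no adjusted p below 0.379.

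Markers of ciliated cells are given beside Pou2f3 because most had lower H2be-GF means too. Being chosen for that direction, they give no support for a link with Pou2f3. They were measured on the same arrays, so the markers are not separate observations. Lower means also held for 13 of 17 partners of Cftr and 10 of 13 mature neuron markers, and for 2 of 11 sustentacular markers. Of 13 markers of respiratory ciliated and secretory cells, 11 had a lower H2be-GF mean, with a median change of -0.11. At an unadjusted limma p under 0.05, 4 passed (30.8%, against 8.43% of all probe sets), all lower. They were Tekt1 (-0.19) and Foxj1 (-0.16), with Ccdc39 (-0.16) and Dnah9 (-0.20), the last pair chosen after their values were seen. None of the 13 passed the adjusted test. Their summed level, as log2, lay between 14.97 and 15.07 on the H2be-GF arrays and between 15.01 and 15.12 on the WT arrays, and no marker was at 0 on any array. Their part in the Pou2f3 values was not tested.

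Plcb2, the phospholipase of the cascade, measured 7.16, 6.79, 7.21 and 7.21 on the H2be-GF arrays. On the WT arrays it ran from 6.84 through a median of 7.14 to 7.24. A single H2be-GF array was lower than all others, and the remaining 3 lay within the WT range. The change was -0.01 (SE 0.11, 95% interval -0.24 to 0.22, limma adjusted p = 0.987).

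Itpr3, the type 3 receptor for inositol trisphosphate that releases stored calcium, measured 8.50, 8.30, 8.53 and 8.48 on the H2be-GF arrays. Its WT values ran from 8.35 through a median of 8.50 to 8.75. Of the H2be-GF arrays 1 lay just under the WT range and the others lay within it, close to the WT median. The change was -0.09 (SE 0.09, 95% interval -0.29 to 0.11, limma adjusted p = 0.832). It was -0.17 among the arrays high in Xist and -0.0080 among those low in it. It was -0.039 without H2be-GF array 2, -0.051 without WT array 3 and -0.049 without WT array 6.

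Trpm5, the calcium-gated channel that depolarises the cell, measured 7.37, 7.71, 7.63 and 7.68 on the H2be-GF arrays. Its WT values ran from 7.58 through a median of 7.72 to 8.01. All 4 H2be-GF arrays were below the WT mean, but 3 of them were inside the WT range. The change was -0.16 (SE 0.09, 95% interval -0.37 to 0.04, limma adjusted p = 0.679). Without H2be-GF array 1, the lowest, it was -0.087.

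Chat, the enzyme that makes acetylcholine, measured 6.54, 6.24, 6.24 and 6.65 on the H2be-GF arrays. Its WT values ran from 6.22 through a median of 6.43 to 6.77, so that every H2be-GF array lay inside the WT range. The change was -0.02 (SE 0.12, 95% interval -0.28 to 0.24, limma adjusted p = 0.973), with the widest interval of the 9 genes. The Chat probe set was dim, at a mean of 6.43 over all arrays, and 89.6% of the probe sets tested were brighter.

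Il25, the cytokine by which tuft cells call on type 2 immunity, was the only tuft-like gene of the 6 with a higher H2be-GF mean. It measured 6.63, 6.66, 6.82 and 6.93 on the H2be-GF arrays, and its WT values ran from 6.34 through a median of 6.58 to 6.82. The Il25 probe set was dim as well, at a mean of 6.65 over all arrays, and 85.9% of the probe sets tested were brighter. All 4 H2be-GF arrays were above the WT mean and 1 was above the WT range. The change was 0.17 (SE 0.11, 95% interval -0.06 to 0.41, limma adjusted p = 0.689). It was 0.074 among the arrays high in Xist, 0.27 among those low in it, and 0.12 without H2be-GF array 4.

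**Figure D1:**
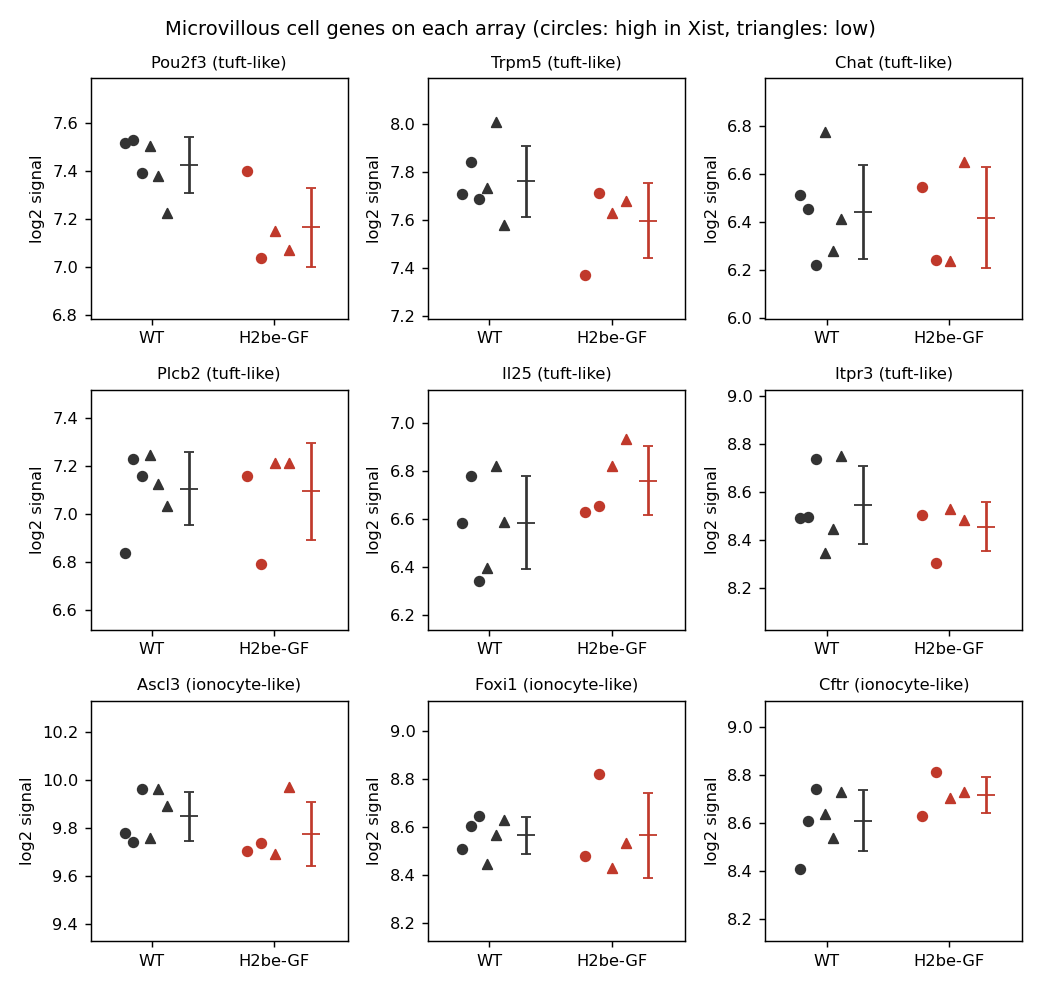
Deposited log2 signal of the 9 genes on each array, with 6 WT arrays in black and 4 H2be-GF arrays in red. Circles are arrays high in Xist and triangles those low in it, bars give the mean and SD of a genotype, and every panel spans the same height. In all 9 panels the genotypes overlap, and Pou2f3 has 3 of 4 H2be-GF arrays below the WT range.

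Among the ionocyte-like genes, Ascl3 encodes a basic helix-loop-helix factor of the microvillous lineage. It measured 9.70, 9.74, 9.69 and 9.97 on the H2be-GF arrays, and its WT values ran from 9.74 through a median of 9.83 to 9.96. Of the H2be-GF arrays 3 lay just under the WT range and 1 just above it. The change was -0.07 (SE 0.08, 95% interval -0.25 to 0.10, limma adjusted p = 0.840). Without H2be-GF array 4 it was -0.14, without H2be-GF array 3 -0.045, and among the arrays low in Xist -0.041.

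Foxi1, the forkhead factor that specifies ionocytes, measured 8.48, 8.82, 8.43 and 8.53 on the H2be-GF arrays. Its WT values ran from 8.44 through a median of 8.58 to 8.65. The H2be-GF arrays were more spread (SD 0.18) than the WT arrays (SD 0.08), with 1 array above and 1 below the WT range. The means differed by -0.00093 (SE 0.08, 95% interval -0.18 to 0.18, limma adjusted p = 0.999).

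Cftr, the chloride channel whose loss causes cystic fibrosis, measured 8.63, 8.81, 8.70 and 8.73 on the H2be-GF arrays. Its WT values ran from 8.41 through a median of 8.62 to 8.74. All 4 H2be-GF arrays were above the WT mean and 1 was above the WT range. The change was 0.11 (SE 0.08, 95% interval -0.06 to 0.27, limma adjusted p = 0.738). Without WT array 1, the lowest, it was 0.067.

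**Figure D2:**
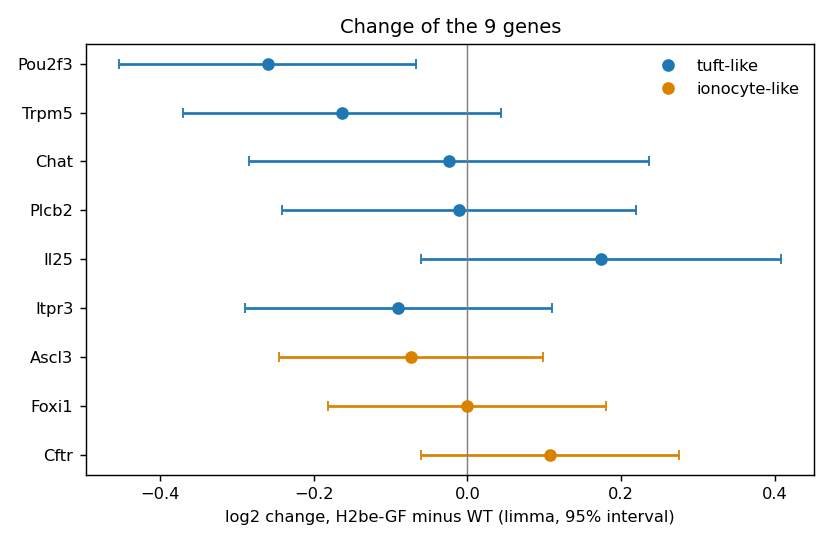
Change of each gene from WT to H2be-GF on the log2 scale, with its 95% limma interval, for tuft-like genes in blue and ionocyte-like genes in orange. Of the 9 intervals 8 cover 0, that of Pou2f3 does not before adjustment, and the bound farthest from 0 is -0.45.

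The intervals show which sizes of change these arrays leave room for. Their half-widths ran from 0.17 for Cftr to 0.26 for Chat. The interval reaching farthest from 0 was that of Pou2f3, with a bound of -0.45. The median change was -0.06 over the tuft-like genes and -0.00093 over the ionocyte-like genes. The response to the transgene was also compared between the arrays high in Xist, the RNA of the inactive X chromosome, and those low in it (2 H2be-GF and 3 WT arrays in each). The series text states an equal mixture of the sexes and the labels give none for an array, whereas Xist was at 11.69 or more on 5 arrays and at 4.61 or less on 5. For none of the 9 genes did this difference pass the limma interaction test, with an adjusted p of 0.999984 for each. Unadjusted p-values of this limma test ran from 0.369 (Il25) to 0.998 (Pou2f3). With so few arrays in each set the test cannot show that the responses were alike.

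Whether genes of 1 cell kind varied together over the arrays was examined for all 36 pairs of the 9 genes, with the kinds as placed above. The means of genotype and of Xist set were removed first, so the 10 values of a gene are not fully independent. The permutations treated these values as freely exchangeable, so their p-values tend to be too small. Of the 18 pairs within a kind 9 correlated positively, with a median r of 0.0023. Of the 18 pairs across kinds 7 did, with a median r of -0.07. These counts depend on where Itpr3 is placed. Its r was -0.57 with Trpm5, -0.34 with Chat, -0.29 with Pou2f3, -0.12 with Il25 and 0.19 with Plcb2. With Ascl3 it was 0.38, with Cftr 0.34 and with Foxi1 -0.0027. No positive correlation within a kind passed the adjustment. On Pearson p-values that tend to be too small, a single pair passed the Benjamini-Hochberg adjustment. It was Pou2f3 with Foxi1, which joins the 2 kinds. Its Pearson r was -0.90 (permutation p = 0.00039, adjusted p = 0.0140) and its Spearman rho was -0.85 (permutation p = 0.00307, adjusted p = 0.111).

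The pair of Pou2f3 and Foxi1 depended on removing those means. Without the 2 arrays farthest from the median of Pou2f3, r was -0.77. Within the arrays high in Xist it was -0.92, and within those low in it -0.85. On the values as deposited r was -0.38 (permutation p = 0.291, adjusted p = 0.968), or 0.06 without the 2 farthest arrays. Of the deposited values, the arrays high in Xist gave -0.83 and those low in it -0.14. The H2be-GF array lowest in Pou2f3, at 7.04, was the one highest in Foxi1, at 8.82.

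**Figure D3:**
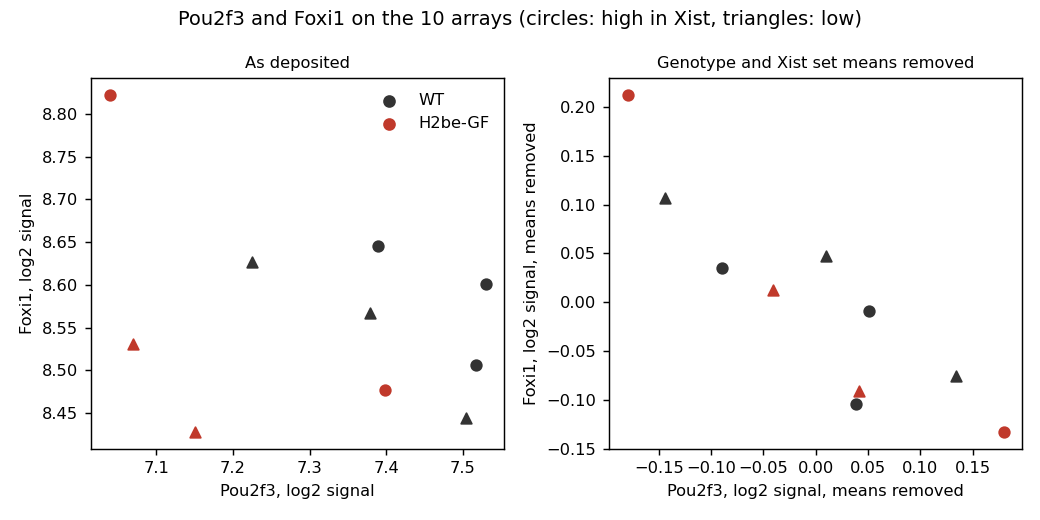
Foxi1 against Pou2f3 on the 10 arrays as log2 signal, on the left as deposited and on the right with the means of genotype and Xist set removed. WT arrays are black and H2be-GF arrays red, circles are high in Xist and triangles low, and the downward slope on the right (r of -0.90) is weak on the left (r of -0.38).

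Other pairs within a kind did not pass the adjustment. Foxi1 with Cftr, the factor and a channel of ionocytes, had r of 0.67 (permutation p = 0.0323, adjusted p = 0.477). Pou2f3 with Trpm5, which share the tuft-like cell, had r of -0.21 (permutation p = 0.560, adjusted p = 0.855). Ascl3 with Foxi1 had r of 0.42 (permutation p = 0.228, adjusted p = 0.723).

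For each gene the genes most like it over the 10 arrays, after the same means were removed, were taken from 17058 candidates with a mean above 7. They were Rnase11 and Tram2 for Pou2f3, Spata32 and Rrp12 for Plcb2, Slit3 and Os9 for Itpr3, and Lsm8 and Dram2 for Trpm5. For Chat they were Tnip1 and Olfr360, and for Il25 Mrpl41 and Oxld1. For the ionocyte-like genes they were Larp1 and Ttc39a for Ascl3, Pag1 and Cdc27 for Foxi1, and Prcp and Mrs2 for Cftr. The highest r for a gene ran from 0.95 for Il25 with Mrpl41 to 0.99 for Cftr with Prcp. On the values as deposited the same 18 pairs gave lower values, from 0.33 for Trpm5 with Lsm8 to 0.96 for Itpr3 with Os9, and Il25 with Mrpl41 gave 0.45. With so many candidates and 10 arrays such values are a description, and none of the 18 genes is another of the 9.

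The wider pathways of the 9 genes were read from lists, each given as calls and as genes at an unadjusted p under 0.05 beside the 8.43% of all probe sets. Among 36 further genes of the tuft signature 0 were called, 1 was higher and 3 were lower at the unadjusted threshold. Their median change was -0.02. Their mean levels ran from 5.23 to 12.29, against 6.43 to 8.51 for the 6 tuft-like genes. In whole tissue the genes of this list need not read tuft-like cells alone. Lrmp, a membrane protein of the endoplasmic reticulum that is abundant in tuft and taste cells, lay at 7.62 to 7.77 on the H2be-GF arrays and at 7.80 to 8.18 on the WT arrays. These ranges did not overlap, and the change was -0.26 (SE 0.07, limma adjusted p = 0.353). Rgs21, a regulator of G protein signalling in taste cells, had a dim probe set with a change of 0.52 (SE 0.17, limma adjusted p = 0.411).

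Upstream in the cascade, 0 of 44 genes of taste transduction were called, while 7 were higher and 1 was lower at the unadjusted threshold (18.2%), with a median change of 0.06. The 7 were Rgs21 and 6 bitter taste receptors of the Tas2r family, whose members resemble each other in sequence. Those 6 had dim probe sets, with means of 5.34 to 6.67 over all arrays, and apart from the pair named next they were chosen after their values were seen. The 1 lower gene was of the same family, Tas2r121, with a difference of -0.23 (limma adjusted p = 0.501), also chosen after its value was seen. Over the whole list 29 means were higher in H2be-GF and 15 were lower. Tas2r103 lay at 6.90 to 7.11 on the H2be-GF arrays and at 5.80 to 6.78 on the WT arrays, a change of 0.56 (SE 0.15, limma adjusted p = 0.332). Tas2r137 lay at 6.49 to 6.93 and at 5.96 to 6.50, a change of 0.44 (SE 0.12, limma adjusted p = 0.343).

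Downstream of the phospholipase, 0 of 17 genes of inositol trisphosphate and calcium signalling were called and 1 was lower at the unadjusted threshold. That was Orai2, a store-operated calcium channel, with a change of -0.13 (limma adjusted p = 0.582), whereas Trpc6 had a difference of 0.21 (adjusted p = 0.665). Of 26 cholinergic genes 0 were called and 2 were lower at the unadjusted threshold, Chrna10 (-0.28) and Chrna3 (-0.24), subunits of nicotinic receptors, although the median of the list was 0.10. Slc18a3, the vesicular transporter that loads acetylcholine and lies inside the Chat locus, differed by -0.18 (limma adjusted p = 0.689). It was picked with its value known. Of 23 genes of the type 2 cytokine axis that Il25 addresses none passed either threshold. Of their means 14 were higher in H2be-GF and 9 lower, with a median change of 0.03. The smallest p-values were those of Il9 (-0.19, limma adjusted p = 0.605) and the goblet cell gene Clca1 (-0.18, limma adjusted p = 0.689).

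On the ionocyte side, 0 of 31 genes of ionocytes and the proton pump were called, 2 were higher at the unadjusted threshold, and the median change was 0.01. Atp6v0b, a subunit of the vacuolar proton pump that most cells use, lay at 10.81 to 10.90 on the H2be-GF arrays and at 10.52 to 10.62 on the WT arrays. The ranges were apart and the change was 0.28 (SE 0.05, limma adjusted p = 0.124). With a variance model that allows a trend with level and outlying genes, its limma adjusted p was 0.00130. That model called 114 of all probe sets, against 20 in the main fit. Rcan2, a calcineurin regulator, had a difference of 0.36 (SE 0.10, limma adjusted p = 0.324). The pump subunit Atp6v1b1, the form typical of ionocytes and chosen after its value was seen, had one of 0.05 (SE 0.07). Of 17 partners of Cftr in ion and fluid transport 0 were called and 2 were lower at the unadjusted threshold. Best2, an anion channel, lay at 6.76 to 6.97 on the H2be-GF arrays and at 7.06 to 7.36 on the WT arrays, a change of -0.33 (SE 0.07, limma adjusted p = 0.201). Kcnq1, a potassium channel, had a difference of -0.16 (limma adjusted p = 0.544).

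**Figure D4:**
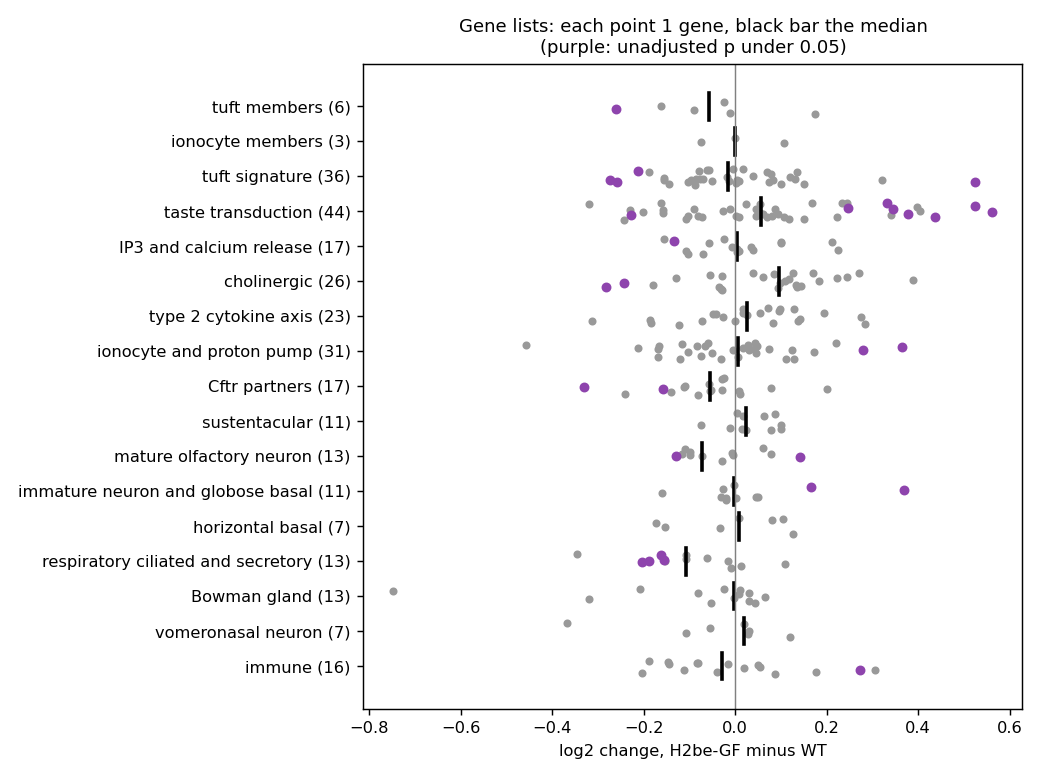
Change from WT to H2be-GF on the log2 scale of each gene in the pathway and cell marker lists, with the number of genes after each list's name. Each point is 1 gene, black bars are list medians, and purple points have an unadjusted p under 0.05. The list medians plotted run from -0.11 for respiratory ciliated and secretory markers to 0.10 for cholinergic genes, and the blood list, of which 1 gene was tested, is not drawn.

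The arrays read as olfactory tissue. Means were 12.78 (H2be-GF) and 12.88 (WT) for Omp, which marks mature neurons. They were 12.87 and 12.81 for Cyp2g1, which marks sustentacular cells. Per the study's methods the transgene was made by replacing the coding sequence of Omp, and what it adds to the Omp probe set was not tested. Array medians lay between 7.74 and 7.91, and any pair of arrays correlated at 0.969 to 0.988. Hist2h2be, the gene of H2BE (H2bc21 in RefSeq), measured 11.84 in H2be-GF and 12.07 in WT (limma adjusted p = 0.297). Its H2be-GF mean was thus the lower one. That is opposite to what the label would give if this probe set read the transgene, and where its probes lie is not known here. The study itself reports the transgene in these mice by other means, quantitative PCR of its RNA and staining of the FLAG-tagged protein. H2bc22, another H2B gene, was higher by 1.42 in H2be-GF (limma adjusted p = 2.43e-04), and what the transgene adds to either probe set was not tested. None of the markers of sustentacular (11 genes), horizontal basal (7), Bowman gland (13) or vomeronasal cells (7) passed an unadjusted p under 0.05. In the same order, the smallest p-values were those of Muc2 (0.10) and Fmo2 (0.10), Icam1 (0.13) and Krt14 (-0.17), Bpifb5 (-0.75) and Bpifb9a (-0.32), and Calr4 (-0.37) and Gnai2 (-0.05). The median changes of these lists were 0.02, 0.01, -0.0029 and 0.02. Of 13 mature neuron markers 10 had a lower H2be-GF mean and 3 a higher one, with a median of -0.07, and at the unadjusted threshold 1 was higher (Ebf1, 0.14) and 1 lower (Cnga4, -0.13). Their summed level, as log2, was 15.53 to 15.59 on the H2be-GF arrays and 15.58 to 15.68 on the WT arrays. Of 11 markers of immature neurons and globose basal cells Lhx2, a homeodomain factor of the neuron lineage, was called (0.37, limma adjusted p = 0.0425). In that list 5 means were higher in H2be-GF and 6 lower, with a median change of -0.0019. The immune list had 1 gene of 16 at the unadjusted threshold, the leukocyte gene Ptprc (0.27), followed by Cd3g (0.31). Over that list 7 means were higher in H2be-GF and 9 lower, with a median change of -0.03. The single blood gene tested, Alas2, had a difference of -0.32 (limma adjusted p = 0.480). The part of these in the values of the 9 genes was not tested.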

How the data were processed

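RNA of whole MOE was measured on a 1-colour Affymetrix array of mouse genes. With Affymetrix Expression Console the authors applied sketch-quantile normalization, summarised each probe set by IterPLIER and deposited log2 values, having screened arrays for outliers with arrayQualityMetrics. Tool versions and the genome build are not given in the sources used here. Quantile normalization gives arrays almost the same distribution, so a change shared by most genes would not show. Of 35556 probe sets, 21789 had 1 gene symbol, 1621 several and 12146 none. Entrez IDs linked 21698 of the first to current symbols in a RefSeq table (GRCm38.p6).

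Groups came from the titles and genotype labels. The genotypes were compared by moderated linear models (limma 3.58.1, R 4.3.3, two-sided, without covariates) over the 23194 probe sets with a symbol and a mean above 5, with Benjamini-Hochberg adjustment. The study's methods name limma and give this level filter for another comparison, and for H2be-GF they state an adjustment among olfactory receptor genes, which these 9 genes are not. All 9 genes passed that filter. The number of arrays limits the precision. Pair correlations used 100000 permutations (scipy 1.17.1). Lists used the probe set of the highest mean per gene. Array sets high (11.69 or more) and low (4.61 or less) in Xist were compared as sets that the labels do not name. A gap of this size in Xist is that between female and male tissue. The procedure was tested on simulated data. Plots used matplotlib 3.10.9.

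The genes and lists were chosen with earlier results of these data known. Each list is represented by its called genes or, where it had none, by the 2 of smallest p, and each of the 9 genes by the 2 most like it. Any other gene is marked where it appears, apart from Omp, Cyp2g1, Hist2h2be and H2bc22, which check the tissue and the transgene. Alternatives covered normalization, the added constant, the variance model, array weights, the replicate block, the Xist sets, filters and leaving out each array.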

Additional observations from a re-analysis of the deposited data

Results flagged for a closer look

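Among the 18 sets of values checked (9 genes in each genotype), 2 had an array far from the others of its genotype, and chance alone marks about 1 in 20 such sets. For Plcb2, H2be-GF array 2 stood at 6.79 with the nearest H2be-GF array at 7.16, a gap of 0.874 of the range of the group. For Ascl3, H2be-GF array 4 stood at 9.97 with the nearest at 9.74, a gap of 0.831 of the range. Without the first of these arrays the change of Plcb2 was 0.09 in place of -0.01, with an limma adjusted p of 0.849. Without the second the change of Ascl3 was -0.14, with an limma adjusted p of 0.639.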

How the results depend on the processing

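No alternative made any of the 9 genes pass the adjusted threshold, and the smallest adjusted p was 0.186, for Pou2f3 after a second quantile normalization. Over 21 alternatives Pou2f3 stayed between -0.34 and -0.22, and within only the arrays high or only those low in Xist no gene passed an unadjusted p under 0.05 (0 and 0 of 9). Chat and Il25 have no value with a filter at a mean above 7. The signs of the 3 changes nearest 0 turned. Foxi1 became 0.0024 with arrays centred on their median, 0.015 with the replicate block and 0.065 within the arrays high in Xist, and ran from -0.087 to 0.045 when 1 array was left out. Plcb2 became 0.026 with array weights and 0.078 within the arrays low in Xist, and ran from -0.064 to 0.090 when 1 array was left out. Chat ran from -0.10 to 0.042 when 1 array was left out. Calls over all probe sets were 114 with the trend and robust variance model, 36 with a mean above 7, 0 within either Xist set, 5 with the replicate block, and 11 to 19 when 1 array was left out (11 without H2be-GF array 1 and 13 without H2be-GF array 3). Under the trend and robust model 1 gene each of the ionocyte (Atp6v0b) and blood (Alas2) lists was called. With the replicate block 0 genes of the immature neuron list were called, Lhx2 included. Without removing means 0 pairs of genes passed. Arrays of the same replicate number correlated at -0.42 to 0.53 after group means were removed, so the numbers were not taken to pair samples. The cause of these shifts was not tested.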
